A study of Mus musculus with 36 samples.

Results

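Primary tumors grown from 4T1 cells were compared to primary tumors grown from Py230 cells at 3 w p.i. (weeks post-inoculation), gene by gene. The comparison used 6 of the 36 RNA-seq libraries of the study, namely 3 4T1 and 3 Py230 tumors, and covered all 21650 genes of the deposited expression table. The 6 glands of the same week that received Matrigel alone, 3 BALB/c and 3 C57BL/6, served as a check for differences between the strains. The question was which genes and functions set the 2 models apart at the time between early ductal growth and large tumors.

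4T1 is a metastatic mammary tumor line from a BALB/c mouse, here with a constitutive firefly luciferase, and was grown in BALB/c glands. Py230 is a mammary tumor line from C57BL/6 mice with the MMTV-PyMT transgene, in which a mammary promoter drives the polyoma middle T antigen, and was grown in C57BL/6 glands. In both models the cells were suspended in PBS and Matrigel and given through the teat canal of a lactating dam after its pups were weaned, with fewer 4T1 than Py230 cells per gland. All 4 groups were therefore female glands that had lactated, and the labels give strain, inoculated material and time but no treatment with a drug and no age. Since 1 line was used per strain, line and strain cannot be told apart within the tumors. RNA came from whole frozen tissue, in which fewer cells of a type and less RNA per cell cannot be told apart. The labels do not say whether the 3 libraries of a group came from separate mice, so the p-values measure only the spread between these libraries.

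A mammary tumor inside the ducts is a mixture of tumor epithelium, fibroblasts, vessels, fat and immune cells. Macrophages are drawn in and kept alive by chemokines and colony-stimulating factors, and the so-called type 2 cytokines, interleukin-4 and interleukin-13, induce eotaxins, which recruit eosinophils through the receptor Ccr3. Luminal cells of the mammary gland are held in their fate by transcription factors such as Elf5, Ehf, Gata3 and Foxa1, and are joined by cadherins, claudins and desmosomes.

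Each value is a score: within every library the deposited values have a mean of 0 and a standard deviation (SD) of 1 over all genes, so a difference of 1 is 1 SD of the genes of a library and not a fold change. Scores are not corrected for gene length and were compared between libraries for 1 gene at a time, never between genes. Differences are given as 4T1 minus Py230 with their standard error (SE), with 3 libraries per group, and a gene was called when its adjusted p was under 0.05 (limma, Benjamini-Hochberg over all 21650 genes). The SE and p-values used a spread shared by all 36 libraries, so they can understate that of the week 3 tumors. For Cldn2, whose SD was 0.63 in 4T1 and 0.38 in Py230 tumors, the SE was 0.20. Its adjusted p was 4.31e-05, and 0.117 with the 6 tumor libraries alone (limma).

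The libraries of a group were unequal, and this bears on every result. 4T1 tumors 2 and 3 correlated with the BALB/c glands of the same week at 0.977 to 0.990 and 0.985 to 0.990, whereas 4T1 tumor 1 did so at 0.929 to 0.950. Py230 tumor 3 correlated with the C57BL/6 glands at 0.980 to 0.991, Py230 tumor 2 at 0.965 to 0.978 and Py230 tumor 1 at 0.926 to 0.938. To follow RNA that marks the later tumors of each line, 40 genes per line were chosen on the tumors at 6 w p.i., where they were higher than in all glands and in the other line. These tumors were whole tissue, so the sets are not limited to tumor cells. The 4T1 set held the myeloid genes S100a8, S100a9 and Arg1. The Py230 set held Clca1, which was higher in 4T1 tumors at 3 w p.i. (1.28). The 40 4T1 genes had a mean score of 0.392 in 4T1 tumor 1, but of -0.161 and -0.197 in 4T1 tumors 2 and 3, against -0.316 to -0.204 in the BALB/c glands and 1.34 to 1.35 at 6 w p.i. The 40 Py230 genes had mean scores of 0.947, 0.752 and 0.382 in Py230 tumors 1, 2 and 3, against -0.0458 to 0.0764 in the C57BL/6 glands. Hmga2, a chromatin protein of fetal tissues and a marker of the 4T1 tumors, scored -0.17 in 4T1 tumor 1 and -1.82 and -1.73 in 4T1 tumors 2 and 3, beside -1.92 to -1.76 in the BALB/c glands. 4T1 tumors 2 and 3 thus held little of the RNA that marks the 4T1 tumors at 6 w p.i. Results are therefore also given for 4T1 tumor 1 against Py230 tumors 1 and 2, a choice made after seeing the data, in which the single 4T1 library is assumed to vary like the other groups.

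**Figure D1:**
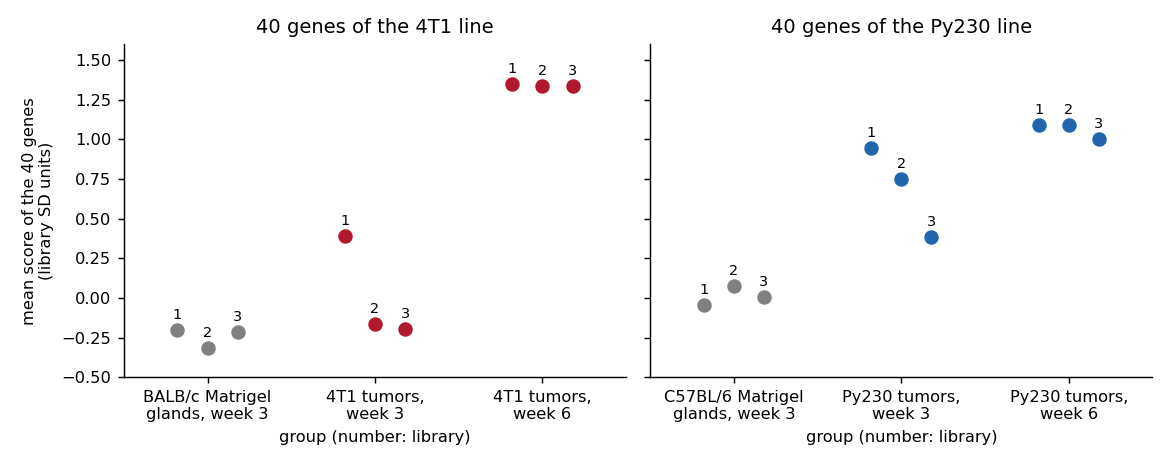
Mean score of the 40 genes that mark the 4T1 tumors of week 6 (left) and the 40 that mark the Py230 tumors of week 6 (right) in each library of the Matrigel glands of the same strain at 3 w p.i. and of the tumors of week 3 and week 6. Points are libraries, numbered within their group. 4T1 tumor 1 sits at 0.392 and the other 4T1 tumors of week 3 near the glands, while the 3 Py230 tumors of week 3 run from 0.382 to 0.947.

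Of the 21650 genes, 6569 were called between the tumors (30.3%), of which 2571 were higher in 4T1 (11.9% of all genes) and 3998 lower (18.5%). The split depends on the scaling: 39.1% of the calls were higher in 4T1 with the deposited scores and 50.7% after a robust line through each library was removed. Between the BALB/c and C57BL/6 glands, 816 genes were called (3.77%), 410 higher and 406 lower in BALB/c. The genes called in the same direction in tumors and glands numbered 506, which are 7.70% of the tumor calls and 62.0% of the gland calls, and 13 were called in opposite directions. When the gland difference was subtracted from the tumor difference, 1980 genes were called (9.15%), 571 higher in 4T1 (2.64%) and 1409 lower (6.51%), and 1785 of them were also called in the tumors in the same direction. The count of 1980 rests on the spread of all 36 libraries, since with the 12 libraries of week 3 alone it was 60. The count of tumor calls was 4118 with those 12 libraries and 434 with the 6 tumor libraries alone. With 4T1 tumor 1 against Py230 tumors 1 and 2, 6559 genes were called (30.3%), of which 4814 were called in the same direction in the full comparison and 1 in the other. Leaving out 1 tumor library moved the count of tumor calls between 3694, without Py230 tumor 1, and 7842, without Py230 tumor 3, and it moved the counts of many lists below, which are therefore also given without the libraries that changed them by more than 1.5 times. Counts of list members below are to be read beside these shares of all genes, 11.9% higher and 18.5% lower in 4T1. Counts of genes with all 3 tumors above all 6 glands belong beside 6.63% of all genes for 4T1 and 11.7% for Py230. The tumor difference is shown against the gland difference for every gene in the plot of both.

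**Figure D2:**
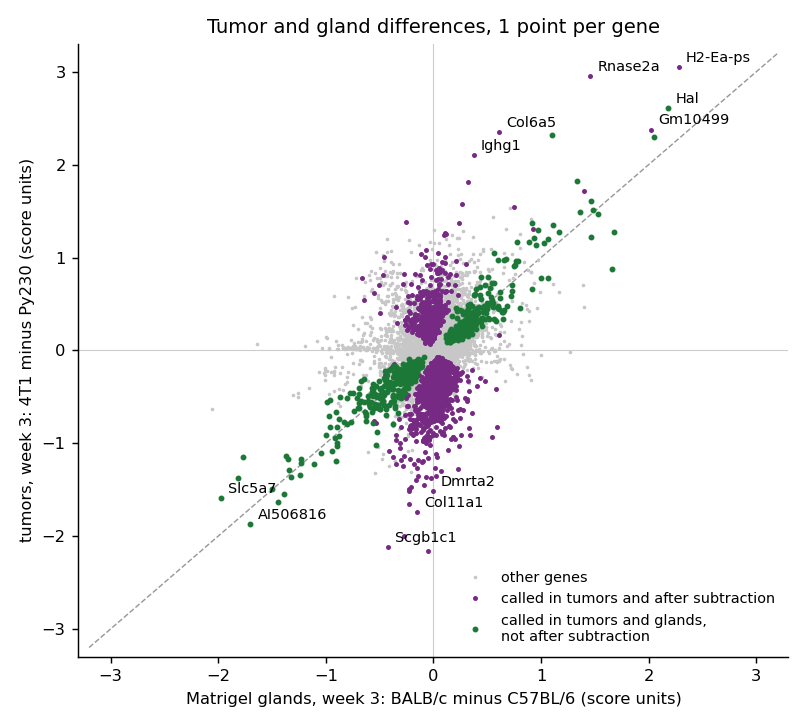
Difference in score between 4T1 and Py230 tumors (y axis) against that between BALB/c and C57BL/6 Matrigel glands (x axis) at 3 w p.i., 1 point per gene; purple points were called in the tumors and after the gland difference was subtracted, green points in tumors and glands but not after subtraction, and the dashed line marks equal differences. The 489 green genes have differences of the same sign in tumors and glands, close to the dashed line for Ifi202b (2.30 and 2.05) and far from it for Mrgprg (2.32 and 1.10).

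A first group of genes was higher in every Py230 tumor than in every 4T1 tumor. Col11a1 (mm10, chromosome 3, 114030540 to 114220718), a minor fibrillar collagen found in cartilage and tumor stroma, scored 1.84, 1.63 and 1.06 in Py230 tumors and -0.25, -0.30 and -0.15 in 4T1 tumors, beside gland means of 0.25 in BALB/c and 0.41 in C57BL/6. Every Py230 tumor was above every gland and every 4T1 tumor below every gland, with a tumor difference of -1.75 ± 0.15 (SE, adjusted p = 2.19e-09) and one of -1.59 ± 0.21 after the gland difference was subtracted (adjusted p = 4.66e-05). Scgb1c1 (chromosome 7, 140845547 to 140846769), a small secretoglobin, was at -1.86, -1.89 and -1.79 in 4T1 tumors, as low as in the BALB/c glands, and at 0.69, 0.34 and -0.21 in Py230 tumors. Its difference was -2.12 ± 0.24, although 1 of the C57BL/6 glands, at -0.50, also stood above the others. Car12 (chromosome 9, 66713686 to 66766845), a membrane carbonic anhydrase, scored 1.85, 1.48 and 1.08 in Py230 and 0.36, 0.04 and 0.10 in 4T1 tumors, a difference of -1.30 ± 0.15 (adjusted p = 5.05e-07), and the 4T1 tumors overlapped the glands.

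Other genes were named by the same rule, that of the 12 largest differences in each direction that were also called after subtraction. The rule admitted only genes whose 4T1 and Py230 values did not overlap, as was so for 32.6% of all genes. The separation of the groups in these genes was thus fixed by the choice. Dmrta2, a transcription factor of the developing forebrain, differed by -1.52 ± 0.16, with Py230 scores of 0.65, 0.41 and 0.05 against -0.70, -1.42 and -1.32 in 4T1. Bhlha15, known as Mist1 and a regulator of secretory cells, differed by -1.47 ± 0.14, with 1.32, 1.10 and 0.68 against -0.55, -0.51 and -0.24. Emid1, an extracellular matrix protein, differed by -1.51 ± 0.14 and Syt13, a synaptotagmin of vesicle transport, by -1.49 ± 0.15. In each of these genes Py230 tumor 3 was the lowest of the Py230 tumors. Capn6, a calpain without protease activity, differed by -1.40 ± 0.13, the galactosyltransferase B3galt5 by -1.38 ± 0.15, the unnamed transcript AL805899.1 by -1.35 ± 0.14, the claudin Cldn2 by -1.27 ± 0.20 and the secreted Wfdc18 by -1.22 ± 0.17. In 4T1 tumor 1, Dmrta2 and Cldn2 (-0.03, with glands at -1.14 to -0.79) were above all 6 glands, while the other 4T1 tumors were not. All 12 stayed called when any 1 tumor library was left out. Without 4T1 tumors 2 and 3 and Py230 tumor 3, Cldn2 and Wfdc18 were no longer called after subtraction.

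Luminal transcription factors and epithelial junction genes were part of this pattern. In the luminal list, 11 of 17 members (64.7%) were lower in 4T1 tumors, beside 18.5% of all genes, and 0 were higher. The median difference was -0.37, beside -0.01 over all genes tested, and the median between the glands was -0.19. After subtraction, 4 of the 17 were called, all lower in 4T1. Spdef (chromosome 17, 27714352 to 27728955), an ETS factor of secretory epithelium, scored 0.53, 0.33 and -0.10 in Py230 tumors and -1.22, -0.80 and -0.95 in 4T1 tumors, a difference of -1.24 ± 0.12 (adjusted p = 2.3e-08). Ehf (chromosome 2, 103263433 to 103303278), an epithelial ETS factor, scored 2.18, 1.96 and 1.67 against 1.04, 0.85 and 0.99, a difference of -0.98 ± 0.11 (adjusted p = 3.93e-07). For both genes the Py230 tumors lay above all glands, whereas the 4T1 tumors lay near or below them, and both were also called after subtraction. Smaller differences in the same direction were called for Elf5 (-0.42 ± 0.08), Kit (-0.37 ± 0.08) and Gata3 (-0.34), all of luminal progenitor or luminal fate. The hormone receptor genes Esr1 and Pgr, with differences of 0.05 and 0.04, and the keratin genes Krt18 and Krt19, with -0.11 and -0.15, were not called. Foxa1, the pioneer factor of hormone-responsive luminal cells, was called in tumors (-0.51) and to a like size in glands (-0.48).

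Of 24 epithelial junction and epithelial regulator genes, 15 (62.5%) were lower in 4T1 tumors and 0 higher, with a median of -0.35 and a gland median of -0.14. After subtraction, 4 of the 24 were called, all lower in 4T1. The desmosomal cadherin Dsc2 scored 1.03, 0.78 and 0.48 in Py230 tumors and -0.10, -0.45 and -0.43 in 4T1 tumors, a difference of -1.09 ± 0.15 (adjusted p = 6.76e-06). The tight junction gene Cldn1 (chromosome 16, 26356642 to 26371841) scored 1.33, 1.21 and 0.82 against 0.37, 0.12 and 0.03 (-0.94 ± 0.17, adjusted p = 0.000159). Esrp1 (chromosome 4, 11331933 to 11386783), a splicing factor that keeps epithelial isoforms, scored 1.78, 1.56 and 1.33 against 0.85, 0.70 and 0.85 (-0.76 ± 0.12, adjusted p = 3.08e-05). The groups did not overlap in any of the 3 genes, and all 3 were called after subtraction, as was Dsg2 (-0.55 ± 0.09 in the tumors). E-cadherin, Cdh1, scored 1.82, 1.66 and 1.50 in Py230 and 1.40, 1.04 and 1.20 in 4T1 tumors (-0.44, adjusted p = 0.00854), but it was not called after subtraction, nor without 4T1 tumor 2 (-0.36, adjusted p = 0.0559) or Py230 tumor 1 (-0.36, adjusted p = 0.0702). Relative to the glands of its own strain, the list mean was at -0.09, -0.22 and -0.13 in 4T1 tumors 1, 2 and 3 and at 0.11, 0.09 and 0.01 in the Py230 tumors, which was not tested. All 3 4T1 tumors lay below all 6 glands for 10 of the 24 genes (6.09% of all genes), and all 3 Py230 tumors above them for 7 (11.7%). With 4T1 tumor 1 against Py230 tumors 1 and 2, 13 of the 24 were called, all lower in 4T1, and 11 to 16 were called without any 1 tumor library.

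Basal markers did not follow as a list. Of 12 basal genes, 3 were lower in 4T1 tumors and 0 higher, with a median of 0.05, and 1 was called without Py230 tumor 1. Sox10, a factor of multipotent mammary cells, scored 1.72, 1.63 and 1.36 in Py230 and 0.91, 0.87 and 1.04 in 4T1 tumors, a difference of -0.63 ± 0.09 (adjusted p = 9.98e-06). The basal keratin genes Krt5 and Krt14 differed by 0.12 and 0.13 and were not called.

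In genes of cell cycle control and growth, Cdkn2a (chromosome 4, 89274471 to 89294653), which encodes the inhibitors p16Ink4a and p19Arf, scored -0.04, -0.07 and -0.60 in Py230 tumors and -0.75, -1.08 and -0.87 in 4T1 tumors. The Py230 tumors were above all 3 4T1 tumors, with a difference of -0.66 ± 0.12 (adjusted p = 0.000258) and one of -0.70 ± 0.18 after subtraction (adjusted p = 0.0145). Cyclin D1, Ccnd1, differed by -0.59 ± 0.10 in the tumors but by -0.46 in the glands, and was not called after subtraction. Pik3r3, a regulatory subunit of PI3-kinase, scored 1.56, 1.30 and 0.92 in Py230 and -0.05, 0.10 and 0.13 in 4T1 tumors, a difference of -1.20 ± 0.09 (adjusted p = 3.36e-10). Of 14 genes of the ErbB family and its ligands, 4 were lower in 4T1 tumors and 0 higher. This share of 28.6% was near the 30.3% called among all genes, of which 18.5% were lower, and after subtraction 1 of the 14 was called. The 4 were the ligands Nrg2 (-0.84 ± 0.14) and Btc (-0.34), and the receptors Erbb2 (-0.29) and Erbb4 (-0.47 ± 0.13). Erbb4 lost its call without 4T1 tumor 1, where it was lowest at -0.89 (adjusted p = 0.0976 without it).

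A second group of genes differed between the glands of the strains as well as between the tumors. Of the calls shared by tumors and glands in 1 direction, 489 were not called after subtraction. Hal, the histidase of histidine breakdown, scored 1.41, 1.44 and 1.19 in 4T1 and -1.24, -1.25 and -1.30 in Py230 tumors, while the glands differed by 2.18. Ifi202b, an interferon-inducible gene, differed by 2.30 ± 0.10 in the tumors and 2.05 in the glands, and Mrgprg, a receptor of sensory neurons, by 2.32 ± 0.32 and 1.10. In the other direction, the uncharacterized gene AI506816 differed by -1.87 ± 0.09 and -1.70, the fibrinogen chain Fgb by -1.64 ± 0.13 and -1.45, and the choline transporter Slc5a7 by -1.59 ± 0.17 and -1.97. In all 6 genes the glands of the strains did not overlap either. Col4a6, a basement membrane collagen chain, belonged with them: it scored 0.86, 0.85 and 0.91 in Py230 and -0.38, -0.56 and -0.45 in 4T1 tumors, with gland means of 0.98 and -0.26. Ifi44l, another interferon-inducible gene, differed by 1.60 ± 0.14 between the tumors but its gland means were -0.07 in BALB/c and -1.54 in C57BL/6.

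Several of the largest differences fell on MHC and immunoglobulin genes, where reads can be split among near-identical copies and the strains carry different alleles, so their values are uncertain. H2-Ea-ps scored 2.61, 1.88 and 1.93 in 4T1 tumors and -0.90, -0.84 and -0.99 in Py230 tumors, but the glands already differed by 2.28, which left 0.77 ± 0.21 after subtraction. The class I related genes Gm10499, Gm11127 and H2-Q2 (chromosome 17, 35342242 to 35346762) differed by 2.38 ± 0.07, 1.71 ± 0.07 and 1.31 ± 0.07 in the tumors and by 2.02, 1.40 and 0.93 in the glands. Ighg1, an immunoglobulin heavy chain, scored 1.51, 0.32 and 0.79 in 4T1 and -0.98, -1.18 and -1.52 in Py230 tumors, beside gland means of -0.68 and -1.06 (2.10 ± 0.29, adjusted p = 7.66e-06). Ighv5-12, a variable segment, was at -0.09, 0.07 and 0.22 in 4T1 tumors, near both gland means of -0.05 and 0.21, and at -1.41, -1.26 and -1.27 in Py230 tumors. The light chain constant gene Igkc and the joining chain gene Jchain, which abound in plasma cells, differed by 0.28 and 0.32 and were not called. Of the 11 B and plasma cell genes, 3 were higher and 1 lower in 4T1 tumors (36.4% called, beside 30.3% of all genes). The lower one, Pax5, is the B lineage factor, and scored -0.20, -0.68 and -0.72 in Py230 tumors and lower in every 4T1 tumor (-0.65 ± 0.13, adjusted p = 0.000369), whereas the B cell surface gene Ms4a1 was higher in 4T1 (0.37).

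The eosinophil genes Rnase2a, Ccr3 and Siglecf were higher in 4T1 tumors. Of the same list, Prg2 and Ms4a2 were not called (limma), and Epx was not among the genes tested. Rnase2a (chromosome 14, 51255262 to 51256112), a ribonuclease of eosinophil granules, scored 2.23, 1.45 and 0.86 in 4T1 tumors, -1.50, -1.46 and -1.38 in Py230 tumors, 0.35, -0.46 and 0.23 in BALB/c glands and -1.48, -1.43 and -1.34 in C57BL/6 glands. All 3 4T1 tumors were above the BALB/c glands and the Py230 tumors were level with the C57BL/6 glands, so a strain difference of 1.46 was part of the tumor difference of 2.96 ± 0.30 (adjusted p = 7.26e-08), and 1.50 ± 0.43 was left after subtraction (adjusted p = 0.0294). Near-identical ribonuclease genes share its family, so its reads may be split. Ccr3 (chromosome 9, 124021972 to 124031689), the eotaxin receptor, scored 0.88, 0.68 and 0.40 in 4T1 tumors and -0.77, -0.45 and -0.63 in Py230 tumors. Its gland means of -0.19 and -0.29 differed by 0.11, which was not called (limma). The BALB/c glands were unequal, at 0.12, -0.72 and 0.05, beside -0.33, -0.20 and -0.35 in the C57BL/6 glands. BALB/c glands 1 and 3 were thus above all C57BL/6 glands. The tumor difference of Ccr3 was 1.27 ± 0.25 (adjusted p = 0.000455), and 1.16 ± 0.36 after subtraction (adjusted p = 0.0401). Siglecf, a surface lectin of eosinophils and some macrophages, scored 0.66, 0.37 and -0.01 against -0.74, -0.75 and -0.61 (1.04 ± 0.19, adjusted p = 0.000236). Of the 9 eosinophil and mast cell genes measured, 7 were higher in 4T1 and 0 lower, with a median of 0.59, and 4 were called without Py230 tumor 1. The mast cell genes Tpsb2, Cpa3, Cma1 and Mcpt4 differed by 0.45 to 0.61, and in these the 4T1 tumors were near the glands, while Py230 tumor 1, at -0.24 to -0.11, was the lowest library. Without Py230 tumor 1, Cpa3 (0.39, adjusted p = 0.0568), Cma1 (0.35, adjusted p = 0.0845) and Mcpt4 (0.26, adjusted p = 0.259) lost their calls, and Mcpt4 did so also without 4T1 tumor 2 (0.39, adjusted p = 0.0957) or Py230 tumor 2 (0.46, adjusted p = 0.0516).

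Some chemokines that act on these cells were higher in 4T1 tumors as well. Ccl24 (chromosome 5, 135569937 to 135573049), known as eotaxin-2, scored 1.32, 0.81 and 0.73 in 4T1 tumors and -0.86, -0.16 and 0.22 in Py230 tumors (1.22 ± 0.22, adjusted p = 0.000157), all 4T1 tumors being above all 6 glands. Ccl11 (chromosome 11, 82057823 to 82062955), eotaxin-1, scored 1.43, 1.23 and 1.17 against -0.06, 0.56 and 0.67 (0.89 ± 0.12, adjusted p = 5.16e-06), again above all glands. Ccl8 (chromosome 11, 82115185 to 82116799), a ligand made by macrophages, scored 2.78, 1.83 and 1.65 against 0.73, 0.91 and 0.86 (1.25 ± 0.26, adjusted p = 0.000624). Ccl8 and Ccl11 were also called after subtraction (adjusted p = 0.0479 and 0.00368), whereas Ccl24 was not (0.85 ± 0.31, adjusted p = 0.0812). Ccl6 and Ccl9, which attract myeloid cells, differed by 0.95 ± 0.18 and 0.85 ± 0.17 and were called after subtraction. In all 5 genes the 4T1 tumors 2 and 3, which otherwise resembled glands, were above every Py230 tumor.

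Of 31 chemokine genes measured, 9 were higher in 4T1 tumors and 3 lower (38.7% called, beside 30.3% of all genes), with a median of 0.35. Among the lower ones, Cx3cl1 (-0.49), a membrane-bound ligand made by epithelium, kept its call without any 1 tumor library. The mucosal chemokine Ccl28 (-0.24) lost it without 4T1 tumor 1 (-0.15, adjusted p = 0.0796) and Ccl25 (-0.22) without any of the 6 (adjusted p up to 0.125). Cxcl9 and Cxcl10, induced by interferon-γ, differed by 0.06 and -0.41 and were not called, and neither were Ccl2 (0.34), Ccl17 (0.88) and Ccl22 (0.56). For Ccl17, the score was 0.72 in 4T1 tumor 1 and -0.61 and -0.52 in the other 4T1 tumors, so 1 library carried that difference. All 3 4T1 tumors were above all 6 glands for 10 of the 31 chemokines (6.63% of all genes), and with 4T1 tumor 1 against Py230 tumors 1 and 2, 15 were higher and 3 lower. The scores of 16 genes, from Rnase2a to Srebf1, are drawn for all 12 libraries of week 3 in the plot of genes by library.

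**Figure D3:**
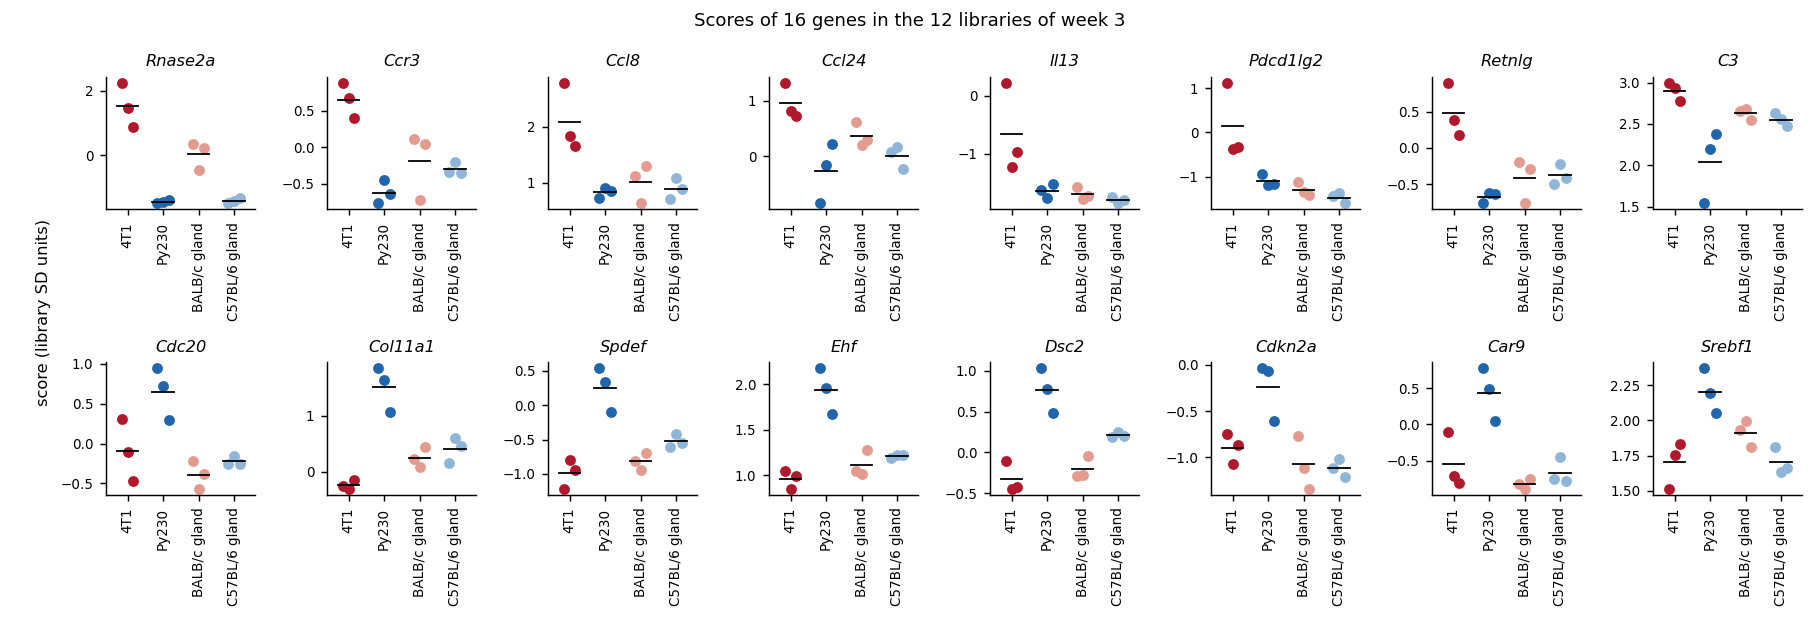
Score (y axis) of 16 genes in the 12 libraries of 3 w p.i.: 4T1 tumors, Py230 tumors, and BALB/c and C57BL/6 Matrigel glands, 3 libraries each, with a bar at each group mean. Rnase2a runs from 0.86 to 2.23 in 4T1 tumors and from -1.50 to -1.38 in Py230 tumors, and Col11a1 from -0.30 to -0.15 and from 1.06 to 1.84.

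Several genes linked to the type 2 cytokines were higher in 4T1 tumors, but they were not a list of their own, so no count is given for them as a group. Il13 (chromosome 11, 53631324 to 53634702) scored 0.22, -1.23 and -0.97 in 4T1 tumors and -1.63, -1.76 and -1.52 in Py230 tumors, with all glands at -1.86 to -1.57, and its difference was 0.97 ± 0.22 (adjusted p = 0.00171). Il4, its neighbour on the chromosome, differed by 0.26 (adjusted p = 0.0052). Neither Il13 nor Il4 was called after subtraction (limma). Il1rl1, the receptor of interleukin-33, scored 0.99, 0.85 and 0.60 against -0.27, 0.00 and 0.07 (0.88 ± 0.13, adjusted p = 1.09e-05) and was called after subtraction (0.91 ± 0.18, adjusted p = 0.00278). The 4T1 tumors were above all Py230 tumors in each of these genes, although for Il13 most of the distance came from 4T1 tumor 1. Alox15, a lipoxygenase of eosinophils and alternatively activated macrophages, scored 1.59, 0.95 and 0.52 against -0.03, -0.06 and -0.13 (1.09 ± 0.28, adjusted p = 0.00436). Il13ra2, a decoy receptor for interleukin-13, was at 0.60 in 4T1 tumor 1, at -1.21 in each of 4T1 tumors 2 and 3, and at -1.83 to -1.64 in Py230 tumors (1.15 ± 0.30, adjusted p = 0.00462). Arg1, the arginase of alternatively activated macrophages, scored 2.14, 0.80 and 0.53 against 0.15, 0.26 and 0.33 (0.91 ± 0.26, adjusted p = 0.00979), and the call was lost without 4T1 tumor 1 (0.42, adjusted p = 0.125). The BALB/c glands were at 0.62 to 0.66 and the C57BL/6 glands at 0.52 to 0.60. 4T1 tumor 3 was thus below its own glands, and the Py230 tumors were below all glands. Il33 itself differed by 0.18 and was not called.

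Of 25 cytokine and colony-stimulating factor genes, 8 were higher in 4T1 tumors and 1 lower (36.0% called, beside 30.3% of all genes). Without 4T1 tumor 1, 5 were called. Oncostatin M, Osm, differed by 0.52 ± 0.13 (adjusted p = 0.0035). The lower gene was Tgfb2 (chromosome 1, 186622792 to 186705989), which scored 1.03, 0.91 and 0.63 in Py230 and 0.11, 0.43 and 0.24 in 4T1 tumors (-0.59 ± 0.10, adjusted p = 6.73e-05). Its relative Tgfb1 was higher in 4T1, at 1.57, 1.18 and 1.21 against 1.02, 1.01 and 0.97 (0.32 ± 0.09, adjusted p = 0.00738), a call lost without 4T1 tumor 1 (0.19, adjusted p = 0.0809). Csf1 (0.24), Csf3 (0.08), Tnf (0.04) and Il1b (0.26) were not called.

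Macrophage genes were higher in 4T1 tumors: 11 of 14 were called and 0 were lower, with a median of 0.44 and a gland median of -0.05. Single libraries carried much of this count, which was 3 without 4T1 tumor 1 and 6 without Py230 tumor 1. The haemoglobin scavenger receptor Cd163 (chromosome 6, 124304656 to 124330527) scored 1.98, 1.66 and 1.15 in 4T1 and 0.36, 0.81 and 0.98 in Py230 tumors (0.88 ± 0.22, adjusted p = 0.00388). The mannose receptor Mrc1 (chromosome 2, 14229392 to 14332057) scored 2.41, 2.02 and 1.74 against 1.06, 1.32 and 1.46 (0.77 ± 0.18, adjusted p = 0.00219). C1qa, a complement subunit made by macrophages, scored 2.47, 1.90 and 1.79 against 1.49, 1.53 and 1.45 (0.56 ± 0.14, adjusted p = 0.00324). In all 3 genes the groups did not overlap, 4T1 tumor 1 was highest, and the calls held without any 1 tumor library. After subtraction, 2 of the 14 were called, although all 3 4T1 tumors were above all 6 glands for 9 of the 14. The list mean exceeded that of the BALB/c glands by 0.80, 0.29 and 0.22 in 4T1 tumors 1, 2 and 3 and differed from that of the C57BL/6 glands by -0.15, -0.06 and -0.07 in Py230 tumors 1, 2 and 3. The SD of the list mean between the glands of a strain was at most 0.165.

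Of 15 neutrophil genes, 8 were higher in 4T1 tumors and 0 lower, with a median of 0.38, a count of 5 without 4T1 tumor 1 or without Py230 tumor 1, and 2 were called after subtraction. Retnlg, a resistin-like protein of neutrophils, scored 0.89, 0.39 and 0.18 in 4T1 and -0.77, -0.63 and -0.63 in Py230 tumors (1.16 ± 0.28, adjusted p = 0.00251). S100a9, a calprotectin subunit, scored 0.23, -0.32 and -0.50 against -1.16, -0.91 and -1.15 (0.88 ± 0.18, adjusted p = 0.000721), and the receptor Cxcr2 differed by 0.80 ± 0.20. The groups did not overlap in these genes, but Ly6g, the marker that defines the lineage, scored -2.24 to -2.08 in the 6 tumors and was not called (0.05). Mmp9, a gelatinase of neutrophils, was called (0.71 ± 0.21, adjusted p = 0.0132), yet not without 4T1 tumor 1 (0.54, adjusted p = 0.0824) or Py230 tumor 1 (0.35, adjusted p = 0.204). Of the 9 dendritic cell genes, 5 were higher in 4T1 (3 without Py230 tumor 3), among them Cd209a (0.70 ± 0.19), while Itgax (0.37) was not called. None of the 9 was called after subtraction (limma, 2 at an unadjusted p under 0.05). Cd209e (chromosome 8, 3847965 to 3854309), a lectin of the same family as Cd209a with near-identical relatives, scored 1.28, 0.38 and -0.14 in 4T1 and -1.25, -1.09 and -0.87 in Py230 tumors (1.58 ± 0.29, adjusted p = 0.000236) and was called after subtraction.

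Complement genes followed the macrophage genes in direction. Of 17, 11 were higher in 4T1 tumors and 0 lower, with a median of 0.38, and 6 were called without Py230 tumor 1. C3 (chromosome 17, 57203970 to 57228136), the central component, scored 2.99, 2.93 and 2.78 in 4T1 tumors, 1.54, 2.19 and 2.38 in Py230 tumors and 2.47 to 2.68 in the glands. The 4T1 tumors were above all glands and the Py230 tumors below them, with a difference of 0.87 ± 0.14 (adjusted p = 6.92e-05) and 0.79 ± 0.20 after subtraction (adjusted p = 0.0168). C6, of the membrane attack complex, scored 1.33, 0.65 and 0.40 against -0.37, -0.23 and -0.13 (1.03 ± 0.21, adjusted p = 0.000462). Properdin, Cfp, which stabilizes the alternative pathway, differed by 0.62 ± 0.15 and was called after subtraction. The list mean differed from that of the BALB/c glands by 0.32, 0.21 and 0.13 in 4T1 tumors and from that of the C57BL/6 glands by -0.46, -0.15 and -0.05 in Py230 tumors.

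For T cells, MHC class II and checkpoint genes, the difference rested mostly on 4T1 tumor 1. Of 13 T cell genes, 2 were higher in 4T1 and 0 lower, with a median of 0.33, but 12 were called without 4T1 tumor 2, 1 without 4T1 tumor 3 or Py230 tumor 2, 3 without Py230 tumor 1 and none (limma) without 4T1 tumor 1 or Py230 tumor 3. Cd8a scored 0.74, -0.54 and -0.02 in 4T1 and 0.08, -0.21 and -0.73 in Py230 tumors, so the groups overlapped and the gene was not called (0.35, adjusted p = 0.22). Cd3g, a chain of the CD3 complex, scored 0.75, -0.27 and 0.14 against 0.07, -0.20 and -0.56 (0.44 ± 0.16, adjusted p = 0.0406), and its call was lost without 4T1 tumor 1 (0.17, adjusted p = 0.384), 4T1 tumor 3 (0.47, adjusted p = 0.0583), Py230 tumor 2 (0.46, adjusted p = 0.0744) or Py230 tumor 3 (0.28, adjusted p = 0.212). With 4T1 tumor 1 against Py230 tumors 1 and 2, 12 of the 13 were higher in 4T1 (13.4% of all genes). The list mean was above that of the BALB/c glands by 1.06, 0.17 and 0.52 in 4T1 tumors and above that of the C57BL/6 glands by 0.49, 0.30 and 0.00 in Py230 tumors, and all 3 4T1 tumors were above all glands for 10 of the 13 genes. None of the 13 T cell genes was called after subtraction (limma, 2 at an unadjusted p under 0.05). In the cytotoxic and NK cell list, 4 of 11 were higher in 4T1, none after subtraction (limma, 2 at an unadjusted p under 0.05), and 1 without 4T1 tumor 1 or Py230 tumor 3. That one, Ncr1, a receptor of NK cells, kept its call without any 1 tumor library (0.51 ± 0.12), whereas Gzmb (-0.01) and Ifng (0.19) were not called.

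Of 10 MHC class II genes, 5 were higher in 4T1 tumors and 0 lower, with a median of 0.42, a count of 1 without 4T1 tumor 1, of 2 without Py230 tumor 2 or 3 and of 8 without 4T1 tumor 2. H2-DMb2 (chromosome 17, 34143307 to 34151555), a peptide loading chain, scored 1.56, 0.88 and 0.79 in 4T1 and 0.22, 0.24 and 0.06 in Py230 tumors (0.90 ± 0.16, adjusted p = 0.000135). H2-Aa scored 3.02, 2.28 and 2.31 against 2.14, 2.05 and 1.97 (0.48 ± 0.16, adjusted p = 0.0243), and without 4T1 tumor 1 it was no longer called (0.24, adjusted p = 0.233), nor without Py230 tumor 2 (0.48, adjusted p = 0.0567) or Py230 tumor 3 (0.44, adjusted p = 0.0609). All 3 4T1 tumors were above all 6 glands for 9 of the 10 genes, but none of the 10 was called after subtraction (limma, 7 at an unadjusted p under 0.05). Among 14 MHC class I genes, 3 were higher in 4T1, among them H2-D1 (0.35 ± 0.07) and H2-Q4 (0.69 ± 0.08), 7 were called without 4T1 tumor 2, and 13 of the 14 were higher with 4T1 tumor 1 against Py230 tumors 1 and 2.

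Of 20 checkpoint and costimulatory genes, 8 were higher in 4T1 tumors and 0 lower, with a median of 0.32, and 2 were higher after subtraction. The count was 2 without 4T1 tumor 1, 5 and 4 without Py230 tumors 2 and 3, 14 without 4T1 tumor 2 and 16 with 4T1 tumor 1 against Py230 tumors 1 and 2. Pdcd1lg2 (chromosome 19, 29410919 to 29471161), the PD-1 ligand PD-L2, scored 1.11, -0.37 and -0.32 in 4T1 and -0.94, -1.18 and -1.17 in Py230 tumors, with the glands at -1.61 to -1.13 (1.24 ± 0.30, adjusted p = 0.0025). Cd274, the other PD-1 ligand PD-L1, scored 1.11, 0.43 and 0.71 against 0.20, 0.33 and 0.35 (0.46 ± 0.12, adjusted p = 0.00438), and lost its call without 4T1 tumor 1 (0.28, adjusted p = 0.0529). All 4T1 tumors were above all Py230 tumors for both ligands. The costimulatory ligand Cd80 differed by 0.39 ± 0.10 and was called after subtraction (0.49 ± 0.14, adjusted p = 0.0298). The receptor Pdcd1 was not called (0.41, adjusted p = 0.0521), and neither were Ctla4 (0.45) and Havcr2 (0.03).

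**Figure D4:**
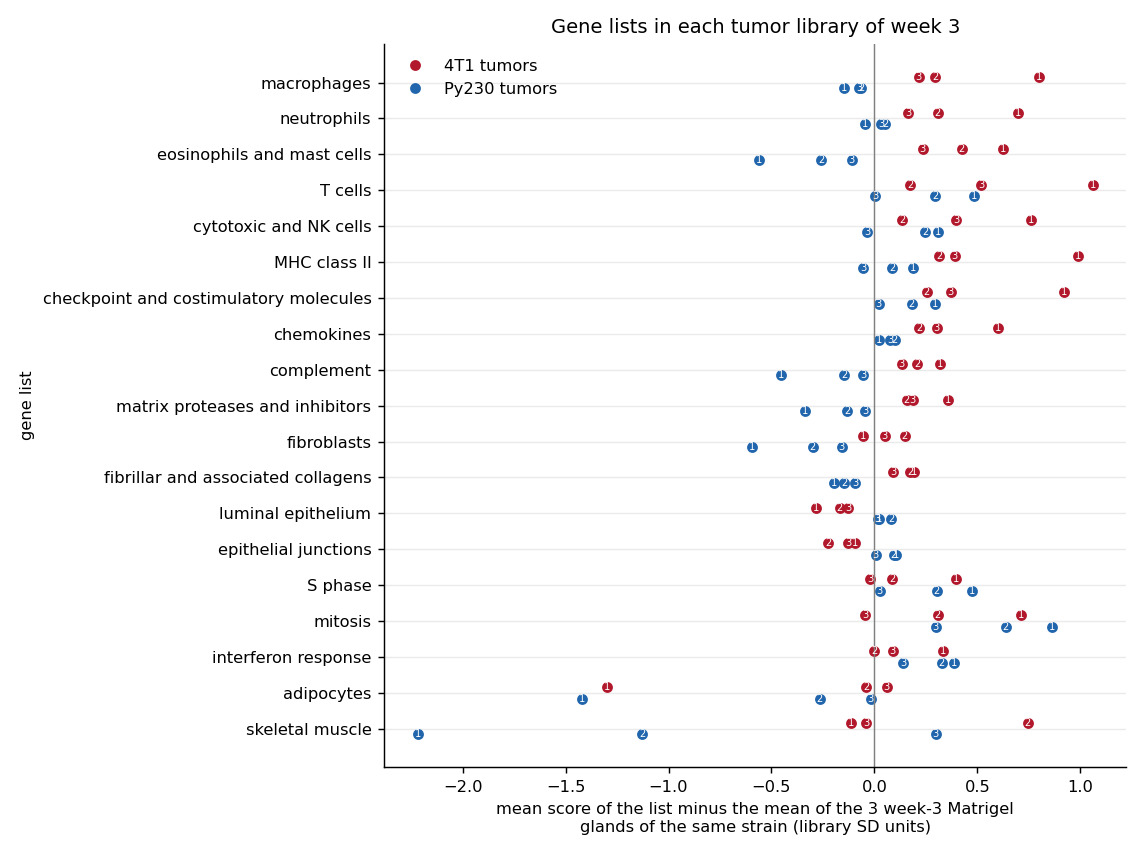
Mean score of 19 gene lists in each tumor library at 3 w p.i. minus the mean of the Matrigel glands of its own strain (x axis, score units), 1 point per library, with a line at 0. Macrophage genes lie 0.22 to 0.80 above the glands in the 4T1 tumors and below 0 in the Py230 tumors, whereas mitosis genes lie 0.30 to 0.86 above the glands in the Py230 tumors.

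Of 23 interferon response genes, 6 were lower in 4T1 tumors and 0 higher, with a median of -0.20, and 3 were called without 4T1 tumor 2 or without Py230 tumor 1. The 26.1% called was below the 30.3% of all genes, and with 4T1 tumor 1 against Py230 tumors 1 and 2, 3 were lower and 1 higher, with a median of -0.07. The broader deposited hallmarks held calls in both directions: the interferon-γ response held 43 higher and 22 lower of 193 and the interferon-α response 12 higher and 19 lower of 96, and without Py230 tumor 1 their calls became 37 and 18. Ifit3 (chromosome 19, 34583531 to 34588731) scored 1.10, 1.10 and 0.97 in Py230 and 0.40, 0.18 and 0.46 in 4T1 tumors (-0.71 ± 0.16, adjusted p = 0.00164). Rsad2, the antiviral protein viperin, scored 1.00, 0.97 and 0.89 against 0.26, 0.39 and 0.49 (-0.57 ± 0.13, adjusted p = 0.00156). All 3 Py230 tumors were above all glands for 13 of the 23 genes (11.7% of all genes) and all 3 4T1 tumors for 2 (6.63%). The list mean differed from that of the BALB/c glands by 0.33, -0.00 and 0.09 in 4T1 tumors 1, 2 and 3 and from that of the C57BL/6 glands by 0.39, 0.33 and 0.14 in the Py230 tumors. None of the 23 was called after subtraction (limma, 2 at an unadjusted p under 0.05), and the interferon-γ targets Gbp2 (-0.13) and Cxcl9 (0.06) were not called between the tumors.

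Fibroblast and matrix genes scored higher in 4T1 tumors, which lay near the glands, than in Py230 tumors. Of 13 fibroblast genes, 7 were higher in 4T1 and 0 lower, with a median of 0.35, a count that ran from 3, without 4T1 tumor 2, Py230 tumor 1 or Py230 tumor 2, over 4 without 4T1 tumor 3 to 11 without Py230 tumor 3. The list mean differed from that of the BALB/c glands by -0.06, 0.15 and 0.05 in 4T1 tumors and from that of the C57BL/6 glands by -0.60, -0.30 and -0.16 in Py230 tumors, and all 3 Py230 tumors were below all glands for 6 of the 13 (8.23% of all genes). Pi16, of a vessel-associated fibroblast, scored 1.43, 1.63 and 1.50 against 0.31, 0.85 and 1.03 (0.79 ± 0.18, adjusted p = 0.00151). Without 4T1 tumors 2 and 3 and Py230 tumor 3, 3 of the 13 were called. The endothelial genes Plvap (0.42 ± 0.07) and Pecam1 (0.25 ± 0.05) were higher in 4T1, as were 2 others of 12, and 11 of the 12 without 4T1 tumor 1, but none after subtraction (limma, 4 at an unadjusted p under 0.05). The 10 pericyte and smooth muscle genes gave 0 calls (limma, 1 at an unadjusted p under 0.05), and 2 without Py230 tumor 3.

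Of 18 fibrillar and associated collagen genes, 12 were higher in 4T1 tumors, 7 of them also after subtraction, and 1, Col11a1, was lower. The 13 calls became 8 without 4T1 tumor 1 and 6 without Py230 tumor 1. Col6a2 (chromosome 10, 76595762 to 76623630), a chain of the microfibrillar collagen VI, scored 2.24, 2.24 and 2.01 in 4T1 and 1.48, 1.66 and 1.79 in Py230 tumors (0.52 ± 0.11, adjusted p = 0.000756), and Col6a1 beside it on the chromosome gave 0.51 ± 0.10. Col6a5, a further collagen VI chain, had one of the largest differences of all: 1.82, 1.38 and 0.95 against -1.40, -0.95 and -0.56, with gland means of -0.14 and -0.75 (2.35 ± 0.27, adjusted p = 3.04e-07). Here the 4T1 tumors were above all glands. Fibronectin, Fn1 (chromosome 1, 71585520 to 71653200), scored 2.94, 2.79 and 2.35 against 1.74, 1.91 and 2.07 (0.79 ± 0.17, adjusted p = 0.00109) and was called after subtraction. The crosslinking enzyme Loxl2 (0.52) and the collagens Col5a1 (0.40) and Col6a3 (0.45) behaved alike. Of 13 EMT regulators and mesenchymal genes, 6 were higher in 4T1 (3 without 4T1 tumor 2), among them Vim (0.34 ± 0.08) and Zeb2 (0.44 ± 0.09), whereas Snai1 (-0.05), Snai2 (0.01), Twist1 (0.11) and Cdh2 (0.21) were not called.

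Matrix proteases and their inhibitors gave 10 genes higher in 4T1 and 1 lower of 23, of which 3 were called without Py230 tumor 1. The urokinase Plau (chromosome 14, 20836660 to 20843385) scored 1.75, 1.55 and 1.42 against 0.71, 0.98 and 1.04 (0.67 ± 0.14, adjusted p = 0.000824), and the lower gene was the membrane protease Mmp15 (-0.37). Mmp12, the macrophage elastase, scored 2.25, 1.23 and 1.48 against 0.22, 0.92 and 1.05 (0.92 ± 0.28, adjusted p = 0.0154), a call lost without 4T1 tumor 1 (0.62, adjusted p = 0.117) or Py230 tumor 1 (0.67, adjusted p = 0.136). Mmp13 scored 1.33 in 4T1 tumor 1 and -0.55 to -0.07 in the other 5 tumors. It was not called (0.30). Smpd3, a sphingomyelinase of bone and cartilage, scored 0.79, 1.54 and 0.99 in 4T1 and -0.81, -0.13 and 0.13 in Py230 tumors (1.37 ± 0.24, adjusted p = 0.000134), and the serpin family gene Serpina3h, which is annotated as a transcribed pseudogene and has near-identical neighbours, differed by 1.54 ± 0.18 in tumors and 0.75 in glands. Of 20 basement membrane genes, 1 was higher in 4T1 and 5 lower (30.0% called, beside 30.3% of all genes). Among the lower ones were the collagen IV chains Col4a5 (-0.53) and Col4a6. These 6 calls became 3 without Py230 tumor 1 and 11 without 4T1 tumor 1, and none was called after subtraction (limma, 4 of the 20 at an unadjusted p under 0.05).

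Cell cycle genes were higher in Py230 than in 4T1 tumors. Of 24 mitosis genes, 17 were lower in 4T1 and 0 higher, with a median of -0.54 (gland median -0.24), and of 22 S phase genes 13 were lower and 0 higher, with a median of -0.26. Cdc20 (chromosome 4, 118432901 to 118437352), the activator of the anaphase-promoting complex, scored 0.94, 0.72 and 0.29 in Py230 and 0.31, -0.10 and -0.47 in 4T1 tumors, with glands at -0.57 to -0.16 (-0.74 ± 0.19, adjusted p = 0.00369). Birc5 (chromosome 11, 117849251 to 117855743), survivin, scored 0.89, 0.62 and 0.30 against 0.28, -0.22 and -0.59 (-0.78 ± 0.19, adjusted p = 0.0031). The highest 4T1 tumor, number 1, was level with the lowest Py230 tumor, number 3, in both. Mki67, the proliferation antigen, scored 1.59, 1.30 and 0.99 against 1.21, 0.79 and 0.45, an overlap, and was not called (-0.48 ± 0.20, adjusted p = 0.068). All 3 Py230 tumors were above all 6 glands for 23 of the 24 mitosis genes (11.7% of all genes) and all 3 4T1 tumors for 0. The list mean differed from that of the BALB/c glands by 0.71, 0.31 and -0.04 in 4T1 tumors 1, 2 and 3 and from that of the C57BL/6 glands by 0.86, 0.64 and 0.30 in Py230 tumors.

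The calls for mitosis genes depended on the strain check and on single libraries. None of the 24 genes was called after subtraction (limma, 2 at an unadjusted p under 0.05), and none with 4T1 tumor 1 against Py230 tumors 1 and 2 (3 at an unadjusted p under 0.05), where the median difference was -0.30. The 17 calls became 4 without Py230 tumor 1, 8 without Py230 tumor 2, 5 without 4T1 tumor 3, 10 without 4T1 tumor 2 and 23 without 4T1 tumor 1, while the 13 S phase calls ran from 3, without 4T1 tumor 3 or Py230 tumor 1, to 21, without 4T1 tumor 1, with 5, 7 and 20 without 4T1 tumor 2, Py230 tumor 2 and Py230 tumor 3. Pttg1, securin, also differed between the glands: it scored 0.24, 0.30 and 0.44 in Py230 and 0.01, -0.39 and -0.63 in 4T1 tumors (-0.66 ± 0.11), and the gland difference was -0.90. Mcm6, of the replicative helicase, did so in S phase, with -0.62 ± 0.12 in the tumors and -0.70 in the glands. Ccne2, the cyclin E2 gene, was the 1 S phase gene still called after subtraction (-0.40 ± 0.13, adjusted p = 0.0448).

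Since mitotic genes are switched on together through promoter elements, the promoters of 3 of them are shown. The windows are 250 bases from RefSeq (GRCm38.p6), on the strand of the gene, with capitals for the cell cycle genes homology region (TTTGAA, or TTCAAA on the other strand) and for the CCAAT box (CCAAT, or ATTGG on the other strand), which in Ube2c overlap at 1 place as CCAATTGG. The first is Cdc20 (chr4:118437344-118437593, minus strand), the second the ubiquitin-conjugating enzyme Ube2c (chr2:164769679-164769928, plus strand) and the last the mitotic kinase Cdk1 (chr10:69352913-69353162, minus strand).
Cdc20: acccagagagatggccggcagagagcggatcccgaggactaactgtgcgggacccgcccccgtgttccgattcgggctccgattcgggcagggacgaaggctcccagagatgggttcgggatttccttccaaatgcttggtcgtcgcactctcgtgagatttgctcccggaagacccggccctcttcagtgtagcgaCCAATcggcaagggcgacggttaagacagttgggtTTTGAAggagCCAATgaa
Ube2c: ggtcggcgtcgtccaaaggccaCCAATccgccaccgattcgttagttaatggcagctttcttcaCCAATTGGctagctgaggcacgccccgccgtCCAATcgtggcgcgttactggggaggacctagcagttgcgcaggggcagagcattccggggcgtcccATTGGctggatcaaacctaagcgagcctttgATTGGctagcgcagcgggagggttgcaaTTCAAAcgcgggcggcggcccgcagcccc
Cdk1: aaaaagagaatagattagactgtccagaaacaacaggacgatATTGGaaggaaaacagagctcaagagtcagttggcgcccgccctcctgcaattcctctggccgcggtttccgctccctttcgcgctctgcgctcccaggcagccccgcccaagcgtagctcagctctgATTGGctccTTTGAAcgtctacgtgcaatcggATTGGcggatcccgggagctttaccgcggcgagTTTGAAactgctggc

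The genes shown were the called mitosis genes of largest difference among those whose window held both elements. That their windows hold both was thus fixed by the choice. These windows hold 1, 1 and 2 copies of the first element and 2, 6 and 3 CCAAT boxes. A window was found for 19 of the 24 mitosis genes, of which 7 (36.8%) held the first element, against 18.3% of all 27025 genes with a window, and 15 (78.9%) a CCAAT box, against 37.5%. Of the 17 S phase genes with a window, 1 (5.88%) held the first element and 11 (64.7%) a CCAAT box. In the tumors, Ube2c scored 0.81, 0.60 and 0.27 in Py230 and 0.38, 0.04 and -0.37 in 4T1 (-0.54 ± 0.15, adjusted p = 0.00631), and Cdk1 scored 0.82, 0.67 and 0.26 against 0.47, 0.03 and -0.36 (-0.53 ± 0.19, adjusted p = 0.0336). As with Cdc20, 4T1 tumor 1 lay within the range of the Py230 tumors and 4T1 tumor 3 at gland level. The call was lost for Ube2c without 4T1 tumor 3 (-0.35, adjusted p = 0.0717) or Py230 tumor 1 (-0.42, adjusted p = 0.0676), and for Cdk1 without 4T1 tumor 2 (-0.53, adjusted p = 0.0735), 4T1 tumor 3 (-0.33, adjusted p = 0.222), Py230 tumor 1 (-0.42, adjusted p = 0.184) or Py230 tumor 2 (-0.49, adjusted p = 0.098). A match of letters is a description of the window and does not show binding.

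Genes of fat and muscle varied among the libraries of each line. Adiponectin, Adipoq, scored 0.69, 2.18 and 2.35 in 4T1 and 0.44, 1.99 and 2.24 in Py230 tumors, and none of 15 adipocyte genes was called (limma, 0 at an unadjusted p under 0.05), although 6 were without 4T1 tumor 1 and 1 without Py230 tumor 3. Their mean differed from that of the glands of the same strain by -1.30 in 4T1 tumor 1 and by -1.42 in Py230 tumor 1, and by -0.27 to 0.06 in the other 4 tumors. None of 10 skeletal muscle genes was called either (limma, 0 at an unadjusted p under 0.05), but their mean ran from -0.73 in Py230 tumor 1 to 1.82 in 4T1 tumor 2.

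Of 18 genes of lipid and sterol synthesis, 6 were lower in 4T1 tumors (33.3%, beside 18.5% of all genes) and 0 higher, with a median of -0.19 while the gland median was 0.34. After subtraction 6 were lower and 0 higher. Srebf1 (chromosome 11, 60199089 to 60222581), the factor that drives fatty acid synthesis, scored 2.37, 2.19 and 2.05 in Py230 and 1.51, 1.75 and 1.83 in 4T1 tumors (-0.50 ± 0.08, adjusted p = 5.15e-05), and -0.72 ± 0.12 after subtraction (adjusted p = 0.000481). Sqle (chromosome 15, 59315077 to 59331192), the squalene epoxidase of sterol synthesis, scored 1.16, 1.13 and 0.98 against 0.59, 0.54 and 0.66 (-0.49 ± 0.06, adjusted p = 1.39e-06). The groups did not overlap in either gene. The fatty acid synthase Fasn, at 1.77, 3.38 and 3.47 in 4T1 and 2.36, 3.16 and 3.44 in Py230 tumors, followed the adipocyte genes and was not called (-0.12).

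Milk genes were split, with 3 of 12 higher in 4T1 and 3 lower. The casein Csn2 scored 2.35, 1.71 and 1.76 in 4T1 and 0.38, 1.02 and 1.14 in Py230 tumors (1.10 ± 0.19, adjusted p = 8.18e-05), but the glands differed by 0.53 and it was not called after subtraction. Csn3 went the other way, at 2.04, 2.16 and 2.40 against 2.91, 2.87 and 2.56 (-0.58 ± 0.13, adjusted p = 0.00172). Olah (chromosome 2, 3341982 to 3397210), the thioesterase that ends medium-chain fatty acids in milk, scored -0.28, -0.38 and -0.67 in Py230 and -1.29, -1.19 and -1.35 in 4T1 tumors (-0.84 ± 0.13, adjusted p = 2.09e-05). Csn3 and Olah were also called after subtraction.

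Of 24 hypoxia and glycolysis genes, 4 were higher and 4 lower in 4T1 (33.3% called, beside 30.3% of all genes), and 5 were called without Py230 tumor 1. The lower ones were the carbonic anhydrases Car12 and Car9, the hexokinase Hk1 (-0.39 ± 0.08) and the phosphofructokinase Pfkl (-0.31), all also called after subtraction. Car9 (chromosome 4, 43506966 to 43513729) scored 0.77, 0.49 and 0.04 in Py230 and -0.10, -0.71 and -0.81 in 4T1 tumors (-0.97 ± 0.16, adjusted p = 4.08e-05). The classical targets Slc2a1 (0.08), Ldha (0.02), Pgk1 (0.15) and Vegfa (0.08) were not called.

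The shares called in the signaling lists ran from above to below the 30.3% of all genes. Of 11 genes of the IGF axis, 5 were higher and 3 lower in 4T1: the receptor Igf1r was higher (0.42 ± 0.09), and the binding proteins Igfbp2, at 1.65, 1.45 and 0.74 in Py230 against 0.67, -0.17 and -0.03 in 4T1 (-1.12 ± 0.25, adjusted p = 0.00158), and Igfbp5 (-0.52 ± 0.13) were lower. Of 24 Wnt pathway genes, 4 were higher and 2 lower, among the latter the inhibitor Wif1 (-0.85 ± 0.17). Of 13 Notch genes 2 were higher, with the receptor Notch2 at 0.28, and 2 lower, with the target Hey1 at -0.58 ± 0.11. Of 9 Hedgehog genes, 3 were higher and 1 lower. The highest, the inhibitor Hhip (0.81 ± 0.21), lost its call without 4T1 tumor 1 (0.44, adjusted p = 0.0548). Of 14 BMP and activin genes, 3 were higher and 1 lower, of 15 genes of the unfolded protein response 4 and 1, of 14 NRF2 and redox genes 4 and 3, of 18 p53 pathway genes 1 and 2, of 17 angiogenic genes 5 and 1, of 15 matricellular genes 5 and 0, and of 10 oncofetal genes 2 and 0. Without Py230 tumor 1 the calls became 3 of 8 in the IGF list (5 without 4T1 tumor 2), 2 of 6 in Wnt, 1 of 4 in Hedgehog, 1 of 4 in BMP and activin, 3 of 7 in NRF2, 2 of 6 in the angiogenic, 2 of 5 in the matricellular and 1 of 2 in the oncofetal list, while the angiogenic list had 10 without 4T1 tumor 1 and the oncofetal list 4 without Py230 tumor 3.

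A list of 31 genes encoded proteins that were assayed in these models by other means. Of them, 8 were higher and 2 lower in 4T1 tumors at the RNA level (32.3% called, beside 30.3% of all genes). Among the higher ones were Cd163, Mmp9, Il6, Adgre1, Tgfb1, Il4 and Pecam1, and the lower ones were Car9 and Lcn2. Of these, Mmp9, Il6, Adgre1 and Tgfb1 each lost their call without 4T1 tumor 1, at differences of 0.54, 0.38, 0.29 and 0.19. Lcn2 (chromosome 2, 32384633 to 32388252), lipocalin-2, scored 2.67, 2.57 and 2.30 in Py230 and 1.64, 1.79 and 2.04 in 4T1 tumors (-0.69 ± 0.13, adjusted p = 0.000219), with the BALB/c glands above the 4T1 tumors. Adgre1, the F4/80 antigen, scored 1.81, 1.47 and 1.36 in 4T1 and 1.12, 1.14 and 1.12 in Py230 tumors (0.42 ± 0.14, adjusted p = 0.0239), and its call was lost without 4T1 tumor 1 (0.29, adjusted p = 0.146), Py230 tumor 1 (0.42, adjusted p = 0.0723) or Py230 tumor 2 (0.43, adjusted p = 0.0512). With 4T1 tumor 1 against Py230 tumors 1 and 2, 17 of the 31 were higher and 2 lower, and without 4T1 tumor 2 16 were called. Ptprc, which marks all leukocytes, scored 1.93, 1.44 and 1.44 against 1.37, 1.30 and 1.15, without overlap, but was not called (0.33, adjusted p = 0.078).

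The 28 deposited hallmarks are broader lists of the same kind. In E2F targets 4 of 191 members were higher and 86 lower in 4T1, and in G2M checkpoint 7 of 189 higher and 85 lower. In MYC targets V1, 1 of 180 was higher and 70 lower. With 4T1 tumor 1 against Py230 tumors 1 and 2, 33 of E2F targets were lower, while without Py230 tumor 1 the calls numbered 31 in E2F targets, 37 in G2M checkpoint and 39 in MYC targets V1. The 90 calls in E2F targets also became 55 and 50 without 4T1 tumors 2 and 3, the 92 in G2M checkpoint 61 and 56, and the 71 in MYC targets V1 became 108 without Py230 tumor 3. In allograft rejection 55 of 179 were higher and 19 lower, in inflammatory response 50 and 17 of 184, in complement 53 and 12 of 173 and in epithelial-mesenchymal transition 56 and 6 of 183. Of the latter 4, the calls of inflammatory response, complement and epithelial-mesenchymal transition became 37, 38 and 33 without Py230 tumor 1, those of complement 43 without Py230 tumor 2, and those of allograft rejection 46 without 4T1 tumor 1. Melk, a kinase among the E2F targets, scored 0.82, 0.53 and 0.19 in Py230 and 0.07, -0.30 and -0.68 in 4T1 tumors (-0.82 ± 0.18, adjusted p = 0.00132). The androgen response held 13 higher and 26 lower of 91, 20 in all without Py230 tumor 1, led by Spdef, Homer2 (-0.80 ± 0.10) and the kinase Stk39 (-0.60 ± 0.07).

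**Figure D5:**
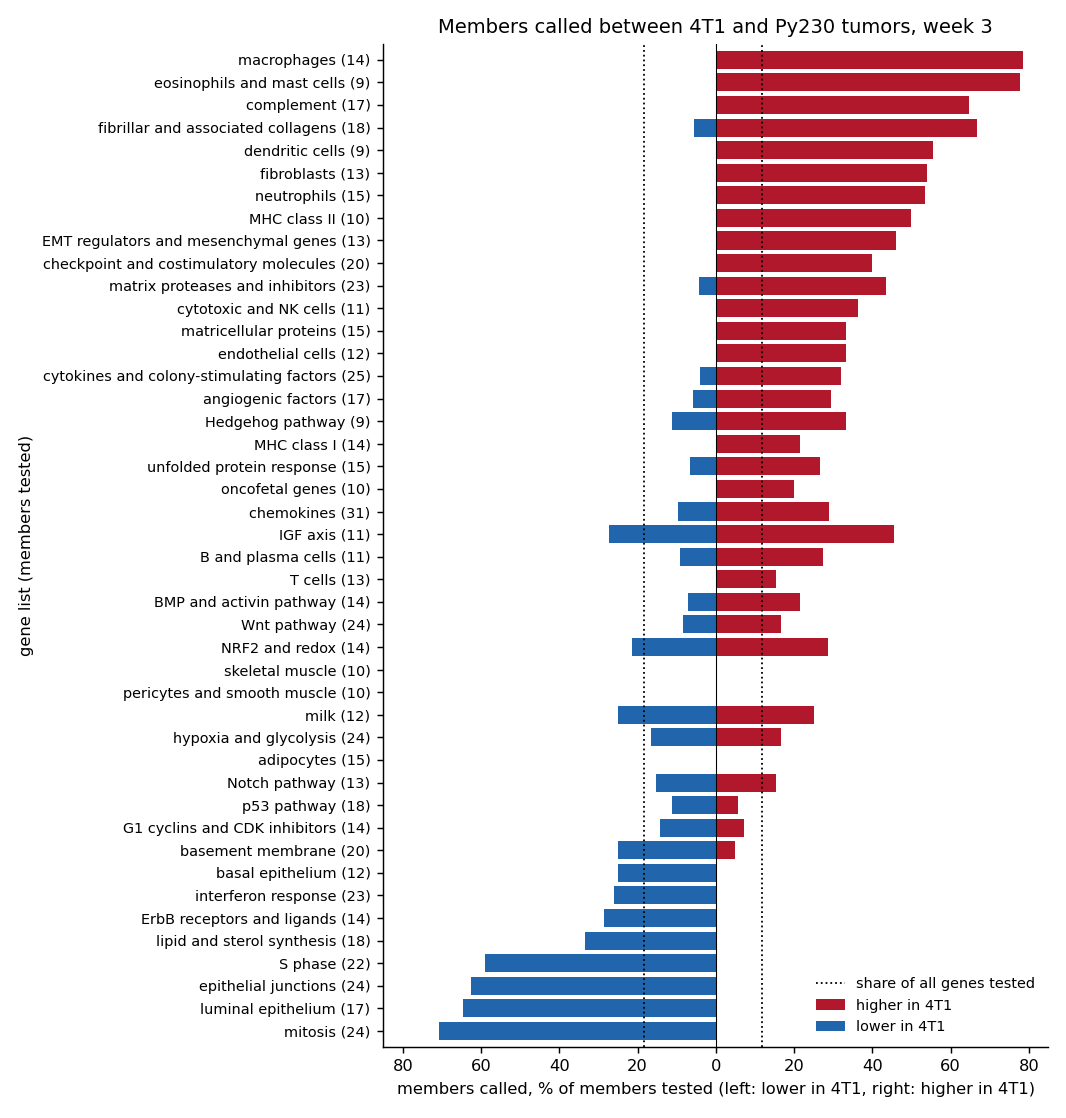
Share of the members of the cell type and pathway lists called higher (right) or lower (left) in 4T1 than in Py230 tumors at 3 w p.i. (x axis, percent). The smallest lists and the assayed proteins are left out. Dotted lines mark the share of all 21650 genes, 11.9% higher and 18.5% lower. Macrophage, complement and eosinophil lists hold calls to the right alone, and mitosis, luminal and junction lists to the left alone.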

How the data were processed

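RNA-seq of whole glands and primary tumors (36 libraries, 12 groups of 3) was used. Per the labels and the methods of the study, the authors aligned reads with STAR to mm10, counted them per gene and normalized them with DESeq2; the versions are not given in the sources used here. The authors deposited a score per gene and library, scaled within each library to mean 0 and SD 1; how it was transformed is not given. Counts were not recoverable, so depth is unknown and no interval for counting error was given. The deposited mean normalized count of a gene, of unit other, served for filters. The deposited 0 or 1 table of 28 hallmarks gave memberships. The authors' own log2 fold changes and p-values were not used, and 0 expression columns were unmapped.

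Scores were fitted with limma 3.58.1 in R 4.3.3, with 1 mean per group over all 36 libraries, empirical Bayes with trend and robust options, and Benjamini-Hochberg adjustment over 21650 genes at 0.05. The 3 comparisons were 4T1 minus Py230 tumors, BALB/c minus C57BL/6 glands, and the first minus the second. The spread was thus shared by all 12 groups, although the tumor groups of week 3 varied more than the glands. An exact permutation of 3 against 3 libraries cannot go below 0.1. The labels share replicate numbers between groups but name no pairs. Same-numbered tumors deviated together at r of 0.522, -0.147 and 0.218, and the differently numbered 4T1 tumor 2 and Py230 tumor 3 at 0.567. Such values cannot decide on pairing, and the libraries were not taken as pairs.

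Named genes were the 12 largest differences per direction (called, without overlap, a mean normalized count of at least 100, called the same way after subtraction), the 3 largest per direction called in glands too and not after subtraction, up to 4 called members of each of 18 cell type and 30 pathway lists, the genes of all assayed proteins and up to 3 per hallmark; uncalled, fixed members named beside them were chosen after their values were seen. Members and lists were chosen with earlier results of these data known. Coordinates are from GENCODE vM21 (mm10), which also gave the names of 5384 genes without a deposited symbol, and promoters from RefSeq. The fit was tested on simulated data. Alternatives were other scalings, a filter at 10, fewer libraries, each library left out, a replicate block and a fit without trend.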

Additional observations from a re-analysis of the deposited data

Results flagged for a closer look

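The difference between 4T1 and Py230 tumors was larger or smaller than that between BALB/c and C57BL/6 glands for 1980 genes (limma, Benjamini-Hochberg), and the genes named by the rules are given here by the tumor difference minus the gland difference in score units. Among the 12 genes with the largest differences that were higher in 4T1, the values were H2-Ea-ps 0.77, Rnase2a 1.50, Gm10499 0.36, Col6a5 1.74, Ighg1 1.73, Gm11127 0.31, Cd209e 1.31, Serpina3h 0.79, Ighv5-12 1.64, Smpd3 1.14, H2-Q2 0.38 and Ccr3 1.16. The MHC class I and class II related genes in that list kept small values, since most of their tumor difference was also found in the glands. Among the 12 that were lower in 4T1, they were Scgb1c1 -1.70, Col11a1 -1.59, Dmrta2 -1.51, Emid1 -1.29, Syt13 -1.26, Bhlha15 -1.26, Capn6 -1.24, B3galt5 -1.35, AL805899.1 -1.20, Car12 -1.37, Cldn2 -1.11 and Wfdc18 -0.87.

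For immune genes the values were Ccl8 1.13, Ccl6 0.87, Ccl11 0.83, C3 0.79, Cfp 0.75, Tpsb2 0.71, Mmp9 0.99, Adgre1 0.65, Ighm 0.67, Cxcl12 0.38 and H2-D1 0.32, against Pax5 -0.73 and Tgfb2 -0.57 in the other direction. For stromal genes they were Fn1 0.81, Col6a2 0.76, Col6a1 0.69, Loxl2 0.50, Zeb2 0.51, Vim 0.42 and Nrp2 0.35. Epithelial genes gave Spdef -0.96, Ehf -0.88, Cldn1 -0.86, Dsc2 -0.67, Esrp1 -0.65 and Sox10 -0.65. Genes of growth and signaling gave Cdkn2a -0.70, Nrg2 -0.64, Hey1 -0.60, Pgf -0.54, Id2 -0.49, Trib3 -0.43 and Zmat3 -0.22 on the lower side and Hhip 0.94, Hmga1 0.46, Igf1r 0.42, Igf2bp2 0.40, P4ha1 0.37, Notch2 0.27, Herpud1 0.25 and Rbl2 0.16 on the higher side. Milk, metabolic and secreted protein genes gave Olah -1.17, Wap -1.04, Car9 -0.82, Srebf1 -0.72, Lcn2 -0.61, Dhcr7 -0.54, Sqle -0.43, Hk1 -0.40 and Prdx1 -0.26. All of these passed the test of the difference itself with the spread of all 36 libraries, while only 60 of all genes did so with the 12 libraries of week 3.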

How the results depend on the processing

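Between the tumors, 6569 genes were called, and 6338, 6629 and 6570 after robust line scaling, cyclic loess and quantile normalization, 6215 with a filter at a mean normalized count of 10 and 6561 without trend. With the 12 libraries of week 3 alone the count was 4118, and with the 6 tumor libraries alone 434, of which 150 were higher in 4T1. Leaving out 1 library gave 3694 (without Py230 tumor 1) to 7842 (without Py230 tumor 3). Between the glands, the 816 calls became 459 with the 12 libraries of week 3, and 535 (without BALB/c gland 2) to 823 with 1 library left out. After subtraction, the 1980 calls became 60 with the 12 libraries of week 3 and 4739 without 4T1 tumors 2 and 3 and Py230 tumor 3, a subset chosen after seeing the data. With 1 library left out they ran from 569 (without Py230 tumor 1) to 3942 (without Py230 tumor 3), with 1070 without BALB/c gland 2, 1110 and 1290 without C57BL/6 glands 2 and 3, and 1313 without Py230 tumor 2. Of those calls 28.8% were higher in 4T1, and 40.5% and 39.6% after robust line scaling and cyclic loess. Without BALB/c gland 2, 194 calls after subtraction were higher in 4T1, beside 571 with all libraries. The cause of these changes was not tested, since leaving out libraries alters both the power and the spread that is used.

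With the replicate number as a block, the counts were 6826, 879 and 2170. In the labels, same-numbered libraries share only a number, and the pairing check could not decide whether they are pairs. Of the 231 named calls, 163 held without any 1 tumor library, 43 were lost with the 12 libraries of week 3, 170 with the 6 tumor libraries, 35 in the subset, 1 with the block, and none changed direction in any alternative run. Depth could not be read from scores, so how counting error limits low genes is unknown.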
